A study of Mus musculus with 192 samples.

Results

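The genes described here are 9 mouse regulators of epithelial identity: the grainyhead-like transcription factors Grhl1, Grhl2 and Grhl3, the zinc finger repressors Ovol1 and Ovol2, the splicing regulators Esrp1 and Esrp2, and the epithelial ETS factors Elf3 and Ehf. The measurement is the place of accessible chromatin windows around them. A list of 50000 windows of 500 bp was deposited, and every window that overlapped by at least 1 bp the body of a member gene or the 50 kb on either side was taken. That rule gave 70 windows. A window counted as being at a start where it lay within 1 kb of an annotated transcript start. By that measure 43 windows lay at a start, of the member itself in 22 cases and of another gene only in 21. Some of the 22, in Grhl2, Ovol2 and Esrp2, were also within 1 kb of another gene's start. The other 27 lay away from every start.

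Pi-ATAC records surface or intracellular protein stains of a sorted cell with its open chromatin, the latter through insertion of sequencing adapters by a transposase. It was applied to a mixture of cultured 4T1 cells, a mouse breast cancer line, stained for the epithelial surface protein EpCAM, and splenocytes stained for the leukocyte surface protein CD45, from the spleen of an MMTV-PyMT mouse that carried no tumour when it was killed. MMTV-PyMT is a transgene in which a mammary tumour virus promoter drives the polyoma middle T antigen. By their titles 96 sorted cells were 4T1 cells and 96 were splenocytes, and 1 cell titled 4T1 had the source name of the splenocytes. No age or treatment was given for either group, and the splenocytes were described as coming from a spleen of a single mouse. The windows were called on pooled cells, as read from the peak names, and carried a position and a name but no count or score. The methods describe pooling within a condition, so whether both groups entered the calls is not certain. Each value below therefore belongs to 1 list without replicates, accessibility could not be compared between tumour cells and splenocytes, and no p-value could be computed. A window shared by both cell types and a window of either type alone look the same in such a list.

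Epithelial cells hold together through adherens junctions, tight junctions and desmosomes, and the genes for these junctions are kept on by a small group of regulators. GRHL proteins bind DNA as dimers at a palindromic word and are known for opening enhancers of epithelial genes such as Cdh1. OVOL proteins repress Zeb1 and other drivers of the mesenchymal state, ESRP proteins select the epithelial splice forms of transcripts such as Fgfr2, and ELF3 and EHF are ETS factors found mainly in epithelia. ZEB and SNAI proteins act in the opposite direction, and bind E-box words in the promoters of epithelial genes.

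The sequences shown are accessible stretches at or near the starts of Esrp2, Elf3 and Grhl3, with the E-box word, the word searched that was most frequent in the own-start windows, in capitals. They were read from the mm9 genome in the direction of the gene, 5′ to 3′. In the promoters of Esrp2 (chr8:108661220-108661469, minus strand) and Elf3 (chr1:137155050-137155337, minus strand) the capitals mark CACCTG, or CAGGTG where it was read on the other strand. The Grhl3 stretch (chr4:135128463-135128562, minus strand) lies in the gene, from the accessible window nearest to its start.
Esrp2 promoter: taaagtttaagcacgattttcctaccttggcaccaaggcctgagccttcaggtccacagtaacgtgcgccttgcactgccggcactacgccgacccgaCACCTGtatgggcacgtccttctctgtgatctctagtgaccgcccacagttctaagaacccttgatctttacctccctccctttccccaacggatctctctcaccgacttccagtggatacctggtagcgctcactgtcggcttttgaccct
Elf3 promoter: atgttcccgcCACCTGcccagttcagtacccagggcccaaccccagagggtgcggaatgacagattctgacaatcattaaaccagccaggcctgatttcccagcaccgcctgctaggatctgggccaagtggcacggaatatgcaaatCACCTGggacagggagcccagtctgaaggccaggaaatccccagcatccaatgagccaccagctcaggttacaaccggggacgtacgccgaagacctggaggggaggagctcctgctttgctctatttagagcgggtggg
Grhl3 intron: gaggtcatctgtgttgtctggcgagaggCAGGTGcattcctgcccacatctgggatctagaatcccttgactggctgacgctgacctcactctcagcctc

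All 9 members had at least 1 window at a start of their own. Of 22350 protein-coding genes on the chromosomes with windows, 48.1% had at least 1. At least 2 own-start windows were found for 6 of the 9 members, against 24.4% of protein-coding genes, and at least 3 for 4 of the 9 (Grhl2, Ovol2, Esrp1 and Esrp2), against 9.37%. In Grhl2, Ovol2 and Esrp2 own-start windows were also within 1 kb of the start of another gene. The median was 2 own-start windows per member and 0 over all genes, but it was also 2 over the 10759 genes that had any. Counted by start, 26 of the 35 distinct annotated starts of the members (74.3%) had a window within 1 kb, against 43.2% of the 70018 starts of protein-coding genes. Starts of the same gene can share a window and are not separate cases, and 9 of the 26 were starts of Esrp2. The outermost start itself lay inside a window in 7 of the 9 members, against 35.6% of genes. The exceptions were Grhl3, whose nearest window centre lay 1232 bp inside the gene, and Ehf, whose nearest was 1081 bp upstream. Only these 2 members had no own-start window when the distance was narrowed to 500 bp, a setting at which 46.3% of genes had one.

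The whole locus, the gene with its 50 kb flanks, held a median of 7 windows per member (range 4 to 11), against 4 over all genes. These counts were not adjusted for locus length, which was 105 to 231 kb in the members. They include the 21 windows at starts of other genes only. With flanks ended at the next protein-coding gene, 49 of the 70 member windows remained. All 9 members had at least 4 windows, against 56.5% of genes, and all 9 had at least 1 window away from starts, against 71.1%. Away from starts the median was 2 windows per member and 2 over all genes. The members were spread around that median, from 1 window in Grhl3, Esrp1 and Esrp2 to 5 in Grhl2 and Ehf and 6 in Grhl1. Ovol2 had the most windows (11), followed by Grhl1 and Grhl2 (10 each), Esrp2 (8), Esrp1, Elf3 and Ehf (7 each), Ovol1 (6) and Grhl3 (4). With 1 list there is no spread to say which neighbours in that order differ.

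**Figure D1:**
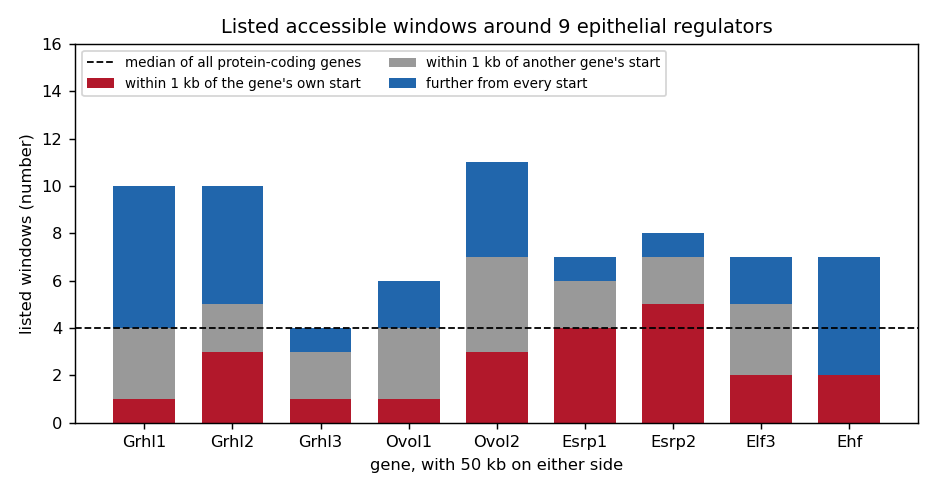
Number of listed windows (vertical axis) in each member gene with 50 kb on either side. Bars are stacked by whether the window lay within 1 kb of the gene's own start, of another gene's start only, or further from every start. The dashed line is the median of 4 windows over all protein-coding genes; Grhl3 sits on it and the other 8 members lie above it.

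Promoters rich in CpG are accessible in many cell types, so the members were set beside genes of like CpG content, measured as the ratio of observed to expected CpG over the 500 bp on either side of the outermost start. Grhl1 (ratio 0.836, the 9th of 10 classes of equal size), Ovol1 (1.04, 10th), Grhl2 (0.757) and Esrp2 (0.754, both 8th) had promoters of classes in which most genes had a window, 81.3%, 82.9% and 78.6%. Ovol2 (0.630) and Esrp1 (0.585) were in the 6th class, at 63.1%. Grhl3 (0.539) was in the 5th, at 43.7%. Elf3 (0.326) and Ehf (0.296) were in the 4th class, where 24.7% of genes had a window. A window was thus common among genes of the CpG class of Grhl1, Ovol1, Grhl2 and Esrp2, and uncommon in that of the ETS factors Elf3 and Ehf. The own-start windows of Grhl3 and Ehf, however, lay wholly outside the stretch in which the ratio was measured.

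**Figure D2:**
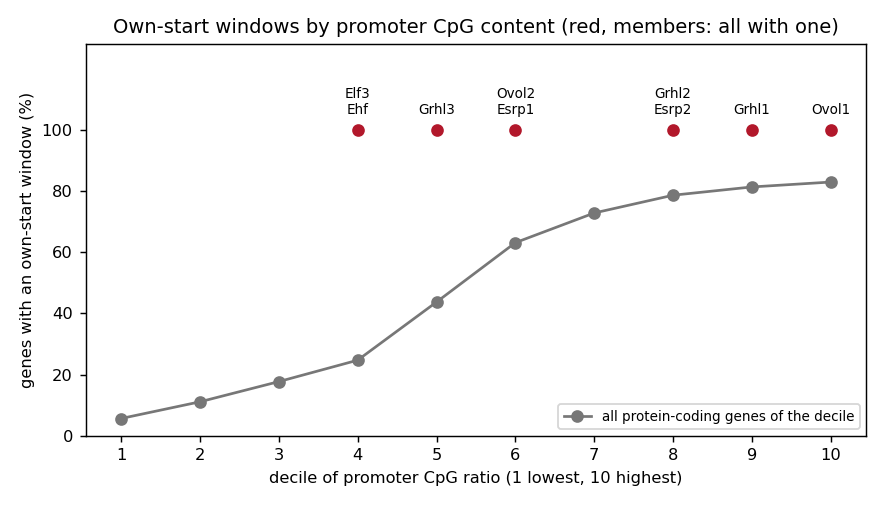
Share of protein-coding genes with an own-start window (vertical axis, percent) in 10 classes of equal size by promoter CpG ratio (horizontal axis). The grey line rises from 5.64% in the lowest class to 82.9% in the highest; red points, drawn at 100% because each member had a window, show the class of each of the 9 members, with Elf3 and Ehf lowest.

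Among the grainyhead-like factors, Grhl2, which maintains Cdh1 and other junction genes, had the most windows at its own start, 3. Grhl2 (ENSMUSG00000022286.9, chr15:37162791-37293324, plus strand) had windows centred 252 bp upstream and 93 bp and 782 bp downstream of its outermost start, all single-summit calls. The first 2 of these overlapped. Another window, 1429 bp into the gene, lay 1157 bp from the nearest Grhl2 start and so just outside the limit for an own start, but within 1 kb of Gm16136. Gm16136 is an annotated transcript that starts on the opposite strand within 1 kb of the Grhl2 start, an arrangement found for 3 members and for 16.6% of protein-coding genes. In Ovol2 the partner was 1700108N11Rik, and in Esrp2 it was 1810019D21Rik. An open start between such pairs cannot be assigned to either gene.

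Beyond its start, Grhl2 had 6 windows in its introns and none in its flanks. They were centred 9.56, 10.6, 11.4, 38.0, 72.3 and 80.1 kb into the gene, and the first of these lay at the start of the annotated transcript Gm16137. No window lay within 1 kb of its starts 85367 and 102701 bp into the gene. The window 11.4 kb into Grhl2 held the AP-1 word, TGANTCA in either direction, at 3 places, 2 of them close together. AP-1 is the family of FOS and JUN factors. The stretch with those 3 words (chr15:37174215-37174474, plus strand) is printed with the words in capitals.
Grhl2 intron: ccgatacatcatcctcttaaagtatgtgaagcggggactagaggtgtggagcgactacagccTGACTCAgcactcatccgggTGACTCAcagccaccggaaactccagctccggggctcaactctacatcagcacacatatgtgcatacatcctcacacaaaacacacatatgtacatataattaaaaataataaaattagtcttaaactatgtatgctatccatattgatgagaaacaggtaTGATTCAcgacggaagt

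Grhl1, a regulator of desmosomal cadherins in skin, had a single window at its start but the most windows away from starts. Grhl1 (ENSMUSG00000020656.9, chr12:25257152-25302256, plus strand) had its own-start window centred 99 bp upstream of the outermost start, with a GC content of 74.8%. The second Grhl1 start, 8462 bp into the gene, had none. Its 3 intronic windows were centred 20.9, 28.8 and 31.1 kb into the gene, 1 lay 47.0 kb upstream in an intron of Taf1b, and 2 lay 25.2 and 37.9 kb beyond the gene's end. The last of these, in an exon of Klf11, followed 3 windows at the start of Klf11, a Krüppel-like factor gene. The deepest intronic window of Grhl1 held 3 E-box words (chr12:25288161-25288440, plus strand), printed in capitals, whereas its own-start window held none.
Grhl1 intron: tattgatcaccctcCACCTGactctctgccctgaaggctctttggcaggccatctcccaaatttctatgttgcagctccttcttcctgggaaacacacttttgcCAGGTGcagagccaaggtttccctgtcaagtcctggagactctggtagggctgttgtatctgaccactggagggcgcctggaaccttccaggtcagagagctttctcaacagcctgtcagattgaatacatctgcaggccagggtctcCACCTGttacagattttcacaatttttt

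Peak calls carry consecutive numbers, and the list kept those with the lowest q-values, so the gaps in the numbers count calls that were left out. From the first to the last listed call of the Grhl1 locus, 9 of 26 calls were listed (34.6%), against 27.2% on the whole of chromosome 12. In the Grhl2 locus 10 of 12 were listed by the same count (83.3%), against 41.8% on chromosome 15. Such a count begins and ends on a listed call and misses calls left out in the outer flanks. It therefore leans upward against the share of a chromosome. Between the outermost listed calls, the listed share was smaller for Grhl1 than for Grhl2, and shares of the whole loci are not known. By chromosome the listed share was lowest on chromosomes 12 (27.2%), 10 (27.7%), 1 and 11 (30.6% each) and 13 (31.3%). On every other chromosome it was at least 38.2%, and the reason was not tested. A gene without a listed window may still have had a call that was left out.

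Grhl3, needed for the skin barrier and for wound closure, had the fewest windows of the 9 members. Grhl3 (ENSMUSG00000037188.7, chr4:135097803-135129545, minus strand) had windows centred 1232 and 2178 bp inside the gene, both in introns, and the outer edge of the first was 983 bp from its single annotated start, just inside the limit of 1 kb. Its other 2 windows lay at the start of Nipal3, a gene for a magnesium transporter-like protein, 47.3 and 48.4 kb beyond the end of Grhl3, the first of them also at the start of 4930555I21Rik. The next listed window upstream of the Grhl3 start was 226 kb away. Between it and the window 1232 bp inside the gene the numbering left out 11 calls, and where these calls lay is not known from the list.

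**Figure D3:**
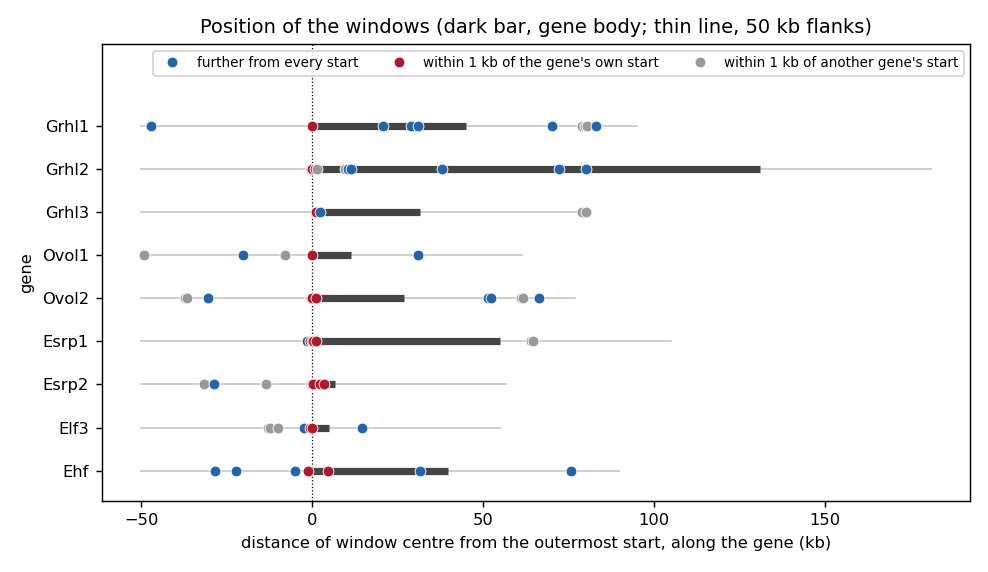
Distance of each window centre from the outermost start of the gene (horizontal axis, kb, positive in the direction of transcription) for the 9 members. Dark bars are gene bodies and thin lines the 50 kb flanks. Red, grey and blue points are windows at the gene's own start, at another gene's start only and away from every start. Apart from a window 252 bp upstream of its start, Grhl2 has all its windows inside the gene, and Ehf has windows on both sides of its start but none at another gene's start.

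Ovol1 and Ovol2, the zinc finger repressors, both had a window across the outermost start. Ovol1 (ENSMUSG00000024922.1, chr19:5549137-5560575, minus strand) had 1 own-start window, centred 125 bp upstream, and no other within its body. Further windows of its locus lay 20.3 kb upstream and 19.6 kb beyond its end, both in intergenic sequence, and at the starts of Gm962 (7.85 kb upstream) and of Kat5, a histone acetyltransferase gene (2 windows, 49.0 and 49.3 kb upstream). Ovol2 (ENSMUSG00000037279.7, chr2:144130911-144157882, minus strand) had 3 own-start windows, centred 398 bp upstream and 30 and 1172 bp downstream of the outermost start, of which the first 2 overlapped. Its remaining windows were 30.4 kb upstream, at the starts of Csrp2bp upstream and of 8430406I07Rik and Snx5 downstream (2 windows each), and 24.6, 25.3 and 39.4 kb beyond the gene's end.

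The Ovol1 promoter window was the only window of the 70 with the GRHL word AACCGGTT (1.43%, exact 95% interval 0.0362 to 7.70%), against 124 of all 50000 windows (0.248%). The word was centred 213 bp upstream of the Ovol1 start, and the OVOL word CCGTTA followed 178 bp upstream. The OVOL word was found in 2 of the 22 own-start windows (9.09%), near the 5.88% of all 17929 windows at starts. Over all member windows the share was 4.29% (3 of 70), against 4.11% of all windows. Its 2 own-start windows were at Ovol1 and Ovol2, where it lay 178 and 22 bp upstream of the outermost start. Binding of these words was not tested. The remaining member window with the word lay at the start of Slc7a6, upstream of Esrp2.

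Esrp1 and Esrp2, the splicing regulators, had the most windows at their own starts, 4 and 5. Esrp1 (ENSMUSG00000040728.9, chr4:11259080-11313930, minus strand) had own-start windows centred 637 and 140 bp upstream and 421 and 1046 bp downstream of the outermost start. Gaps of only 61 and 125 bp separated them, and the 2 upstream windows overlapped. A window 1566 bp upstream had its edge 1316 bp from the start and so counted as away from starts, and it held 3 E-box words. No window lay within 1 kb of the Esrp1 starts 19605 and 42538 bp into the gene, and the numbering left out 4 calls between the last own-start window and the next listed one. The other 2 windows were at the start of Dpy19l4, beyond the gene's end, and of the transcript Gm16652.

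Esrp2 (ENSMUSG00000084128.3, chr8:108654219-108660874, minus strand) is a short gene of 6.66 kb with 9 annotated starts, all of which had a window. Its own-start windows were centred 446 bp upstream and 9, 405, 2289 and 3538 bp downstream of the outermost start. The first 3 were summits of a multi-summit call. The last 2 counted only through internal starts, most of them of transcripts annotated as retaining an intron. Upstream it had 1 window away from starts, at 28.7 kb, and windows at the starts of Pla2g15, a lysosomal phospholipase gene, and of Slc7a6, an amino acid transporter gene. In local alignments (match 1, mismatch -1, gap -2) of own-start windows over the 36 pairs of members, the highest score was 36. It was between the Esrp1 window centred 421 bp into the gene, in coding sequence, and an own-start window of Esrp2. There 68 bases in 96 columns were identical (70.8%). The second highest score, 30, was between own-start windows of Grhl1 and Ovol2, which belong to different families.

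Elf3 and Ehf, the ETS factors, had starts of low CpG content and differed in the place of their windows. Elf3 (ENSMUSG00000003051.7, chr1:137150151-137155049, minus strand) had 2 own-start windows of a single multi-summit call, centred 119 and 612 bp upstream, so that without multi-summit windows it was the only member to lose its start. It had no window inside the gene apart from the edge of the first. Away from starts it had windows 2.49 kb upstream and 9.71 kb beyond its end, and 3 windows lay 9.82, 12.4 and 12.9 kb upstream at starts of Rnpep, an aminopeptidase gene. From the first to the last listed call of its locus, 6 of 9 calls were listed (66.7%), against 30.6% on chromosome 1. As for Grhl1 and Grhl2, that count leans upward.

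Ehf (ENSMUSG00000012350.8, chr2:103103590-103143435, minus strand) had no window across its outermost start. Its own-start windows were centred 1081 bp upstream and 4776 bp downstream, the latter near an internal start 3713 bp into the gene, and their edges were 831 and 814 bp from the starts they were assigned to. Of its 9 annotated starts 5 had a window within 1 kb and those 358, 12341, 19518 and 29027 bp into the gene had none. Between the windows 1081 bp upstream and 4776 bp downstream a single call was left out of the list. The other windows of Ehf lay 4.92, 22.2 and 28.4 kb upstream, 31.6 kb into the gene and 35.9 kb beyond its end, and none was at the start of another gene. Elf5, the third ETS factor of the same subfamily, begins 108 kb from the Ehf start on the opposite strand. All 4 windows between those starts belonged to the Ehf locus, Elf5 had no own-start window, and the nearest window to the Elf5 start was 44.9 kb away. A stretch of the window 22.2 kb upstream of Ehf (chr2:103165695-103165844, minus strand) held an AP-1 word and an E-box word, in that order in capitals.
Ehf upstream: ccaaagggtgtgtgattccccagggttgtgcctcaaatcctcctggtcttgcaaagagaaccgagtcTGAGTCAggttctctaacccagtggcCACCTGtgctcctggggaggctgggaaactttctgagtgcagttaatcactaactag

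The E-box word CACCTG, counted on both strands, was found in 14 of the 22 own-start windows of the members (63.6%, exact 95% interval 40.7 to 82.8%, which covers counting error only and takes windows that overlap as separate). Of all windows at starts, 33.5% held it. The word was singled out after its shares had been seen. The 14 windows held 18 distinct places and belonged to 8 members, all but Grhl1. Of the 10759 protein-coding genes with an own-start window, 46.4% had the word in at least 1 of them. That share rose with the number of own-start windows, from 33.0% of genes with 1 to 53.0% with 2, 65.8% with 3, 73.7% with 4 and 79.6% with 5. Of the 3 members with 1 own-start window 2 had the word, and all 6 members with more had it. When only the central 200 bp of each window were read, 31.8% of the members' own-start windows held the word, against 15.2% of all windows at starts.

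Within own-start windows, the E-box words nearest to an outermost start lay 48 bp upstream in Esrp1, 60 bp in Grhl2 and 138 bp in Elf3. Those of Ovol1 and Esrp2 lay 47 and 91 bp downstream. In Ovol2 the nearest within these windows was 1272 bp into the gene and in Grhl3 1013 bp. Sequence outside the listed windows was not searched, and no window reached the start of Grhl3 or Ehf. In Ehf the own-start window with the word was the internal one, 4664 bp into the gene. Away from starts the word was in 51.9% of the 27 member windows, against 36.3% of all windows there.

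**Figure D4:**
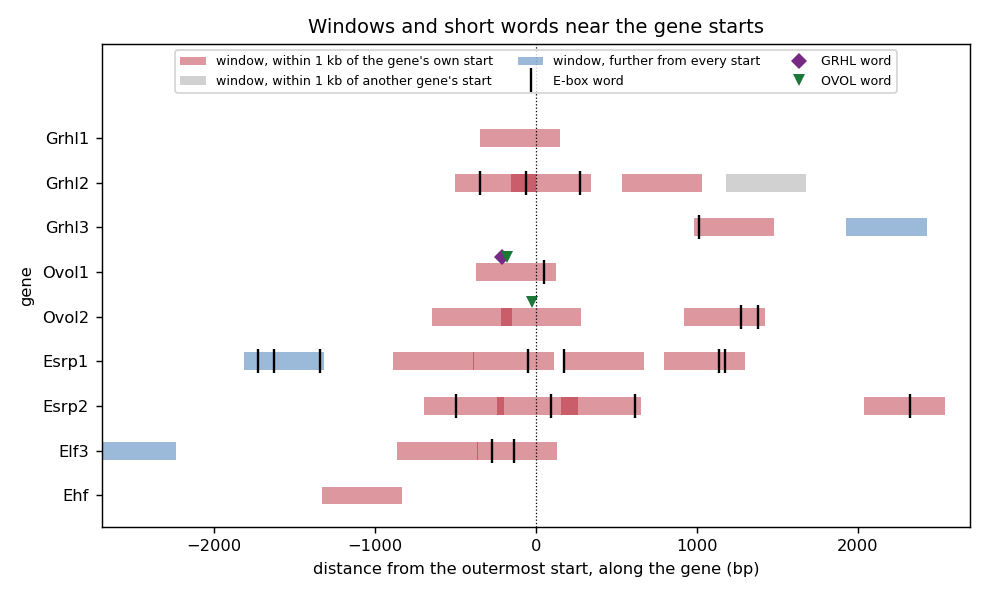
Windows near the outermost start of each member (horizontal axis, bp along the gene; bars are 500 bp windows, darker where they overlap), with black ticks for E-box words, green triangles for OVOL words and a purple diamond for the GRHL word. The single GRHL word and an OVOL word lie together upstream of Ovol1, another OVOL word lies 22 bp upstream of Ovol2, and no bar reaches the start of Grhl3 or Ehf.

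Of the other words searched, the looser GRHL word AACNNGTT was in 7.14% of member windows and 6.45% of all windows, in 5 windows of 5 members. The general ETS word CCGGAAG was in none of the 22 own-start windows, against 17.2% of all windows at starts. Taken as 3 counts of 22, that allows a share of up to 13.6%. This limit takes windows that overlap as separate, and with overlaps merged there were 16, so it does not set the members apart. The general ETS word was present at starts of their neighbours, in 3 windows of the Ovol1 and Ovol2 loci. The ETS word GAGGAAG, of the kind that the leukocyte factor SPI1 binds, was in 27.3% of own-start windows and 20.5% of all windows at starts. Away from starts it was in 3.70% of member windows (1 of 27) and 20.9% of all. The NFI word TTGGCA was in 44.4% of member windows away from starts and 27.6% of all, and the AP-1 word in 25.9% and 31.9%. RUNX, TEAD, FOX and SP and KLF words differed from the share of all windows by at most 7.97 percentage points in both classes.

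**Figure D5:**
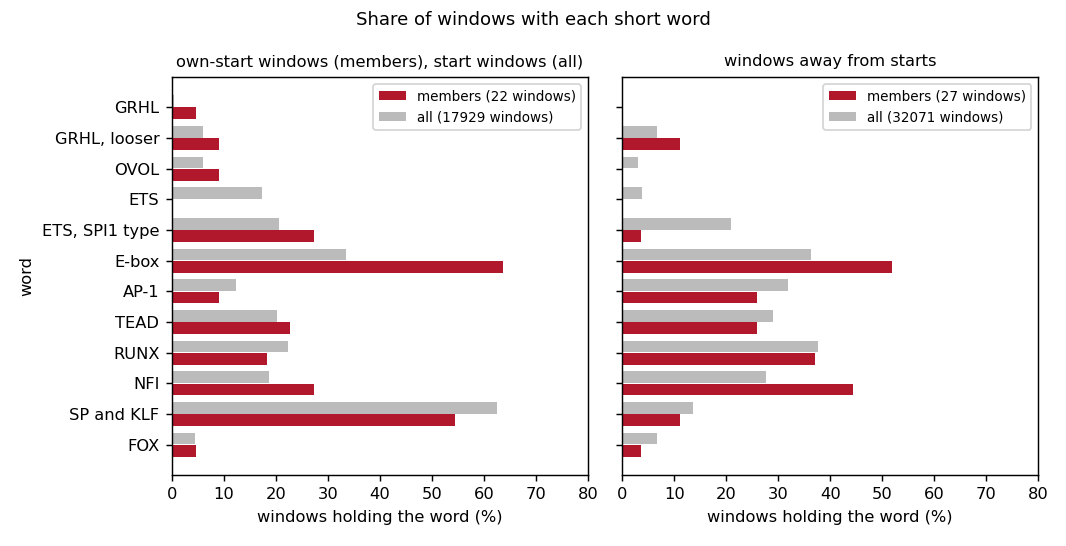
Share of windows that hold each short word (horizontal axis, percent): red bars, the 22 own-start windows of the members on the left and their 27 windows away from starts on the right; grey bars, all 17929 windows at starts and all 32071 away. The E-box bar of the members reaches 63.6% against 33.5% on the left, the general ETS bar is at 0, and on the right the SPI1-type ETS bar is at 3.70% against 20.9%.

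In summit class and base composition the windows of the members lay close to the whole list. Multi-summit calls gave 13 of the 70 (18.6%), against 18.2% of all windows. At own starts the share was 31.8%, against 33.0% of all windows at starts. None of the 27 windows away from starts came from such a call, which allows a share of up to 11.1% when taken as 3 counts of 27, against 9.96% of all. The median GC content of own-start windows was 58.9%, against 59.2% at all starts, and their median CpG ratio 0.600, against 0.693. Away from starts the medians were 50.0% GC against 48.8%, and a CpG ratio of 0.227 against 0.212. Of the 27, 13 were centred in introns, 11 in intergenic sequence, 2 in untranslated exons and 1 in a coding exon. The windows nearest to the limit of the flanks were those of Ovol1 at 49.0 and 48.8 kb from the gene, inside it, and of Elf3 at 50.3 kb, outside it.

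Genes related to the members or acting with them were counted in the same way. Of 9 relatives 6 had an own-start window (66.7%, against 48.1% of all protein-coding genes), and Ovol3, Elf5 and Spdef had none. As among the members, 4 of the 9 relatives had at least 3 own-start windows, and the medians were 7 windows in the locus and 2 away from starts. Elf2 (12 windows away from starts), Elf4 (9) and Elf1 (5), all ETS factors, had the most among them. Of 18 junction, keratin and protease genes known to be controlled by GRHL or OVOL factors or expressed with them, 17 had an own-start window (94.4%, against the same 48.1%), all but Tjp3, a tight junction scaffold gene. Tjp3 lies on chromosome 10, where 27.7% of calls were listed. Arhgef19 had 15 windows away from starts, Krt8 13 and Cldn4 11. The GRHL word was in 1 of the 196 windows of these 18 loci (0.510%).

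Among 10 mesenchymal factors and genes, 6 had an own-start window (60.0%, against 48.1% of all protein-coding genes), with a median of 2 per gene as among the members, and Snai2, Twist2, Prrx1 and Cdh2 had none. Twist2 and Prrx1 lie on chromosome 1, where 30.6% of calls were listed. Snai1 (9), Zeb2 (8) and Zeb1 (6) had the most windows away from starts, and Zeb1 and Snai1 had 2 own-start windows each, Zeb2 3. Among 10 genes spliced by ESRP proteins or encoding other splicing factors, 9 had an own-start window (90.0%) and Enah, an actin regulator with an epithelial exon, had none. Enah also lies on chromosome 1. Fgfr2 had 60 windows away from starts, but its annotated model spans 3010 kb. Rbm47 had 11 and Cd44 9.

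Marker genes of both cell types were looked up in the list. Epcam, Cdh1, Krt8, Krt18 and Cldn4, the 5 epithelial markers, all had an own-start window, against 48.1% of all protein-coding genes. Of 11 leukocyte markers 9 had an own-start window (81.8%), yet their promoters were of CpG classes in which 11.1 to 43.7% of genes had one. Ptprc, which encodes CD45, and Itgb2 had none but had 4 and 9 windows away from starts. They lie on chromosomes 1 and 10, where 30.6% and 27.7% of calls were listed. Calls at their starts may have been left out. From which of the cell types the windows of the regulators came cannot be told apart.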

How the data were processed

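Pi-ATAC was performed on sorted 4T1 cells and splenocytes, grouped here by sample title (96 each). As the methods and labels state, adapters were trimmed, reads were mapped to mm9 with Bowtie2 2.1.0, duplicates were removed with Picard 1.79, and summits were called with MACS2 (version not given in the sources used here) on aggregated cells. The deposited list gives the position of each 500 bp window and a peak name, with no score, count or p-value, and the authors kept the windows with the lowest q-values. Read depth was not analysed here.

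GENCODE vM1 gene models were used, with starts of protein-coding and long non-coding genes. A window away from starts was over 1 kb from all of these. Own starts were those of any transcript of the gene. Calculations were made in Python 3.11.15 (scipy 1.17.1), figures with matplotlib 3.10.9. Words were searched on both strands of each window. Intervals are Clopper-Pearson, and for a count of 0 the limit is 3 counts of the total. No test was made, because there is 1 pooled list. Of simulated data, 200 of 200 planted words and 30 of 30 inserted blocks were recovered, and windows at 500 of 500 simulated starts matched a direct search. Members, lists and words were chosen with earlier results of these data known. Named were all members, neighbours with a window at their start, list genes without an own-start window and up to 3 per list with the most windows away from starts (ties by name). Zeb1, Snai1 and Zeb2 own-start counts and marker genes are given beyond that rule. Tfcp2 and Tfcp2l1 were found under older symbols. Alternatives covered the start distance, flank, start set, summit class and merged windows, and, added after the data were seen, 3 for the E-box share. For 1 leukocyte marker and the sequences of 4 promoters, results are not reported here.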

Additional observations from a re-analysis of the deposited data

How the results depend on the processing

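Of 25 alternatives, 17 left a value within its limit (1.5 times a count, or the interval of a share). Among the 17 was the looser GRHL word, found in 5 member windows (7.14%) where the exact word was in 1 (1.43%). It counted as within the limit only because the interval on 1 window reaches 7.70%, so it does not show a stable share. The count of 9 members with an own-start window became 3 with multi-summit windows alone (13.0% of genes), and 8 with single-summit windows alone. The 70 windows became 42 with 10 kb flanks, 114 with 100 kb and 28 in gene bodies alone. The 27 windows away from starts became 14 with 10 kb flanks, 44 with 100 kb, and 48 when only the members' own starts counted. These shifts follow from the settings themselves. The E-box share of own-start windows fell to 31.8% in the central 200 bp, where less sequence was read, and was 68.8% with overlapping windows merged and 58.8% without Esrp2. These last 3 settings were chosen after seeing the data. No paired analysis was possible because there is 1 pooled list and no test. Without a score or replicates, the order of the members by number of windows has no error.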
